A study of Mus musculus with 12 samples.

Results

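The sites that MyoD occupied were compared with those of MD(ND2bHLH)WCS, the most altered of 3 MyoD derivatives, in P19 cells, a mouse embryonal carcinoma line that can be turned towards neurons or muscle. The comparison covers every site of both deposited lists, 24935 for MyoD and 22462 for MD(ND2bHLH)WCS, together 47397 of the 120275 sites in the 5 lists of the series. A MyoD site that shared at least 1 base with a site of MD(ND2bHLH)WCS is called held, and any other MyoD site is called lost. By this rule 6271 MyoD sites were held and 18664 were lost.

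MyoD directs the formation of skeletal muscle and NeuroD2 that of neurons, and both are transcription factors with a basic helix-loop-helix (bHLH) domain. Both pair with E proteins through the helix-loop-helix, and their basic regions contact E-boxes, short DNA elements of the form CANNTG whose middle bases differ in how well each factor binds them. MyoD can also reach some of its sites together with the homeodomain proteins Pbx and Meis, through residues next to the bHLH domain. How a bHLH factor selects among the very many E-boxes of a genome is the question behind the exchange of domains between a muscle and a neuronal factor.

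Each protein was delivered to P19 cells by infection with polybrene, the medium was renewed after 24 h, and the cells were moved after 48 h to a medium for neurons; no source used here gives the promoter that drove the proteins or the time of harvest. The compared groups are cells with MyoD and cells with MD(ND2bHLH)WCS, called WCS below, which is MyoD with the NeuroD2 bHLH domain and further changes for which the labels give only the letters WCS. The NeuroD2 group, MD(ND2bHLH) (the chimera below) and MD(ND2bHLH)WC (WC below) served to describe the held and lost sites, and untransduced cells are not analysed here. Every group had 2 ChIP-seq libraries, from cells fixed in 1% formaldehyde for 11 min, and the 5 analysed groups had 1 list each. The 2 libraries used different antibodies, 6196 and 6975 against MyoD for MyoD, WCS, WC and the chimera, and 1165 and 1240 against NeuroD2 for NeuroD2.

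With 1 list for each protein there is no spread between replicates, so no test between proteins was possible and the values below are descriptions. Each share is followed by its exact Clopper-Pearson 95% interval, which covers counting error only and treats neighbouring sites as independent. The read depth is unknown, so a site missing from a list was not called there and may still have been bound. The authors' value of a site, read as −log10 of a p-value, served only to rank sites within a list. The lists of NeuroD2, WC and WCS contain sites on chromosome X and sites shorter than any in the lists of MyoD and the chimera, which have 0 on X. Wherever these sets are compared, the protein and the way its list was made cannot be told apart.

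WCS held 6271 of 24935 MyoD sites, or 25.1% (24.6 to 25.7%). Read from the other list, 6280 of 22462 WCS sites lay over a MyoD site, or 28.0% (27.4 to 28.6%). In bases, 20.6% of the DNA covered by MyoD sites was also covered by WCS sites, and 25.3% of the DNA under WCS sites was covered by MyoD sites. The MyoD list had 0 sites on chromosome X, and without the 362 WCS sites there the share of WCS sites over MyoD was 28.4% (27.8 to 29.0%).

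Held sites were nearly all matched by a single WCS site, in most cases close to their middle. Only 66 held sites touched more than 1 WCS site. The centres of the paired sites lay a median of 44.5 bp apart, and 4988 of the held sites, 79.5%, had centres within 100 bp. At the edge of the rule, 5 held sites shared fewer than 10 bases with WCS, with MyoD values from 6.94 to 33.2, and 8 lost sites had a WCS site at most 10 bases away, with MyoD values from 5.27 to 35.0. The lost sites were mostly far from any WCS site, at a median of 21053 bp, and 1253 of them, 6.71%, had one within 1000 bp.

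Sites that MyoD shared with NeuroD2 made up most of what remained. Of all MyoD sites 25.7% overlapped a NeuroD2 site. Among held sites this was 4964 of 6271, or 79.2% (78.1 to 80.2%), and among lost sites 1456 of 18664, or 7.80% (7.42 to 8.20%). With lists of equal length, each cut to its 22462 sites of highest value (the chimera list is shorter and stayed whole), the share was 69.4% of held and 4.47% of lost sites. The contrast was present in each of 10 bins of the MyoD value. When the MyoD sites were divided into 10 bins by MyoD value, NeuroD2 overlapped 78.2% of held and 6.22% of lost sites in bin 1, the lowest. In bin 10, the highest, it overlapped 87.2% of held and 12.6% of lost sites.

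The chimera, which carries the NeuroD2 bHLH domain without the added changes, overlapped 33.5% of all MyoD sites, and WC 28.8%. The chimera list has 14375 sites, the WC list 27045 and the NeuroD2 list 31458. Shares of different lists, here and below, therefore rest on unlike numbers of sites. The chimera had 4360 of the held sites, 69.5% (68.4 to 70.7%), and 3992 of the lost sites, 21.4% (20.8 to 22.0%). WC had 5513 of the held sites, 87.9% (87.1 to 88.7%), and 1659 of the lost sites, 8.89% (8.48 to 9.31%). Thus 6002 held sites, or 95.7%, and 5293 lost sites, or 28.4%, were in at least 1 of the NeuroD2, chimera and WC lists.

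Membership in those 3 lists divided the MyoD sites into 8 classes with very different shares held. The class in all 3 lists, 3838 sites, kept 3530, or 92.0% (91.1 to 92.8%), and these were 56.3% of everything WCS held. Sites in the NeuroD2 and WC lists but not in the chimera's followed, with 1150 of 1423 held, or 80.8% (78.7 to 82.8%). Where NeuroD2 was present and WC absent the share was far smaller, 30.8% (26.2 to 35.8%) with the chimera and 21.5% (18.7 to 24.5%) without it.

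**Figure D1:**
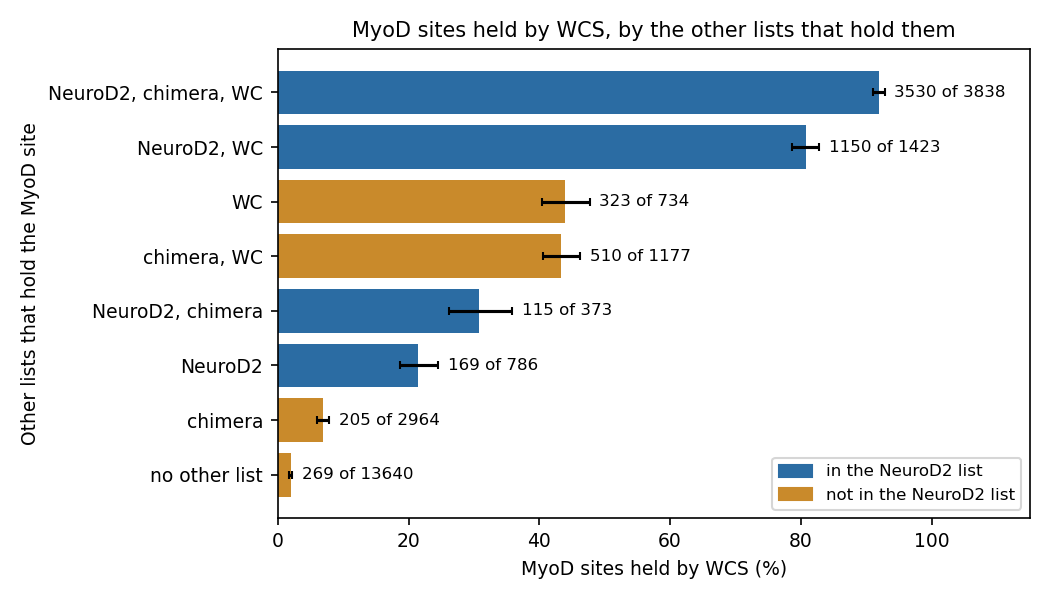
Share of MyoD sites held by WCS in each of 8 classes, defined by which of the NeuroD2, chimera and WC lists also hold the site. Bars show percent held, error bars the exact 95% binomial interval, and the text beside each bar the held and total sites. The classes in WC and NeuroD2 together are highest, at 92.0% and 80.8%, and sites in no other list are lowest, at 1.97%.

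Among MyoD sites outside the NeuroD2 list the order followed WC. WCS held 44.0% (40.4 to 47.7%) of those in WC alone and 43.3% (40.5 to 46.2%) of those in WC and the chimera, intervals that overlap. Sites in the chimera list alone were held in 205 of 2964 cases, or 6.92% (6.03 to 7.89%). The largest class, 13640 MyoD sites found in none of the other 3 lists, kept 269, or 1.97% (1.75 to 2.22%), and with lists of equal length 3.40%. That class and the class of the chimera alone together made up most lost sites, at 71.6% and 14.8% of them.

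Pooled over all classes, held sites had higher MyoD values than lost sites, and this did not hold within every class. The median was 15.5 (exact 95% interval of the median 15.1 to 16.1) for held and 9.72 (9.63 to 9.97) for lost sites. Both medians depend on the part of the list used, and were 27.1 and 19.1 when only the upper 50% of every list by value was used. Of the 8 classes above, the held median was higher in 4, among them the class in all 3 other lists (20.6 held, 17.2 lost) and the class in none (9.29 and 8.79). It was 9.97 for both held and lost sites in the class of NeuroD2 and WC. It was lower for held sites in the class of the chimera alone (14.4 and 16.1), of the chimera and WC (16.9 and 21.2) and of WC alone (10.3 and 10.4). The pooled distributions overlapped widely, since the quartiles were 8.62 and 32.0 for held sites and 6.88 and 17.2 for lost sites. Held sites were also wider, with a median of 391 bp against 349 bp, and width and value went together over all 24935 MyoD sites (Spearman's rho 0.63, across sites of 1 list).

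The value in the NeuroD2 list separated held from lost sites more sharply than the MyoD value did. Across 10 equal bins of all MyoD sites by MyoD value, the share held went from 14.9% (13.5 to 16.3%) in bin 1 to 49.1% (47.1 to 51.1%) in bin 10. The share of MyoD sites overlapping NeuroD2 went nearly in step, from 16.9% to 49.2%. Within the 6420 MyoD sites that overlap NeuroD2 the range by MyoD value was narrower, from 68.8% (65.1 to 72.4%) to 88.0% (85.2 to 90.4%). The same sites ranked by NeuroD2 value went from 44.7% (40.8 to 48.6%) to 98.3% (97.0 to 99.1%). Lost sites in this class had a median NeuroD2 value of 7.57 (7.48 to 7.86), against 17.5 (17.1 to 18.2) for held ones.

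**Figure D2:**
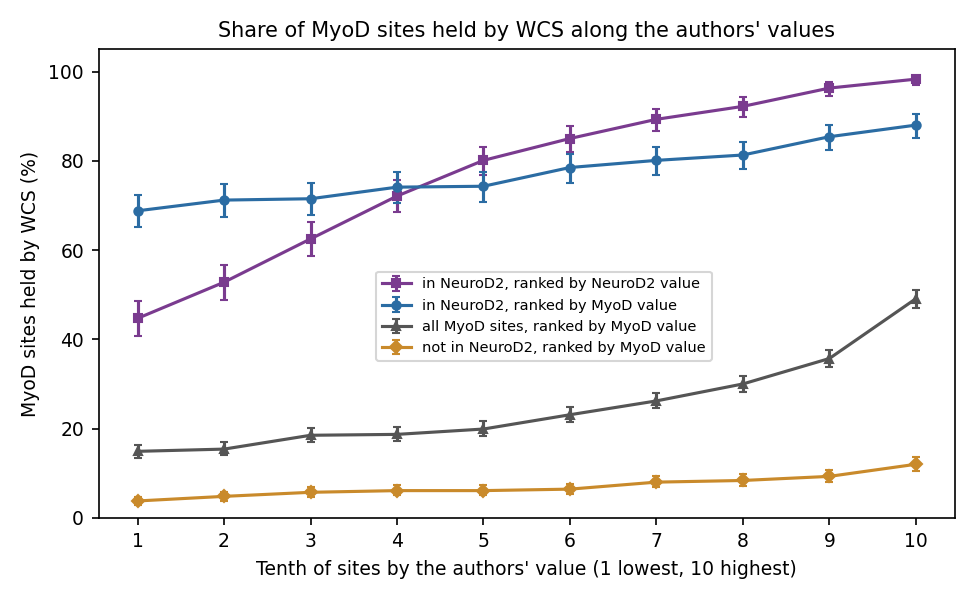
Share of MyoD sites held by WCS (vertical axis, percent) in 10 equal bins by the authors' value (horizontal axis, 1 lowest to 10 highest), with exact 95% binomial intervals. Among sites in NeuroD2, ranking by NeuroD2 value spans 44.7 to 98.3%, ranking by MyoD value 68.8 to 88.0%, and sites not in NeuroD2 stay at or below 12.0%.

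The MyoD sites in the NeuroD2 list were then placed in 3 bins by each of the values. At the lowest MyoD values the share held was 48.3% (44.8 to 51.8%), 76.9% (73.6 to 79.9%) and 93.0% (90.7 to 94.8%) from the lowest to the highest NeuroD2 bin. At the highest MyoD values it was 61.7% (57.5 to 65.7%), 86.2% (83.5 to 88.7%) and 97.9% (96.7 to 98.8%). The step across NeuroD2 bins was thus larger than the step across MyoD bins, although both were present. Outside the NeuroD2 list the share held went from 3.78% (2.96 to 4.75%) in the lowest of 10 MyoD bins to 12.0% (10.5 to 13.6%) in the highest. All these bins pool sites inside and outside the chimera and WC lists. As given above, the held median MyoD value was not the higher in every such class.

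At the held sites the order of the WCS values was closer to that of the NeuroD2 values than to that of the MyoD values. Over the 4964 held sites that are in the NeuroD2 list, Spearman's rho with the WCS value was 0.65 for the NeuroD2 value and 0.16 for the MyoD value. The MyoD and NeuroD2 values themselves had a rho of 0.10. Of the held sites in the highest NeuroD2 bin of 10, 59.8% were also in the highest WCS bin, whereas of those in the highest MyoD bin 18.5% were. These are descriptions across sites; MyoD and WCS share their antibodies and NeuroD2 has others.

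**Figure D3:**
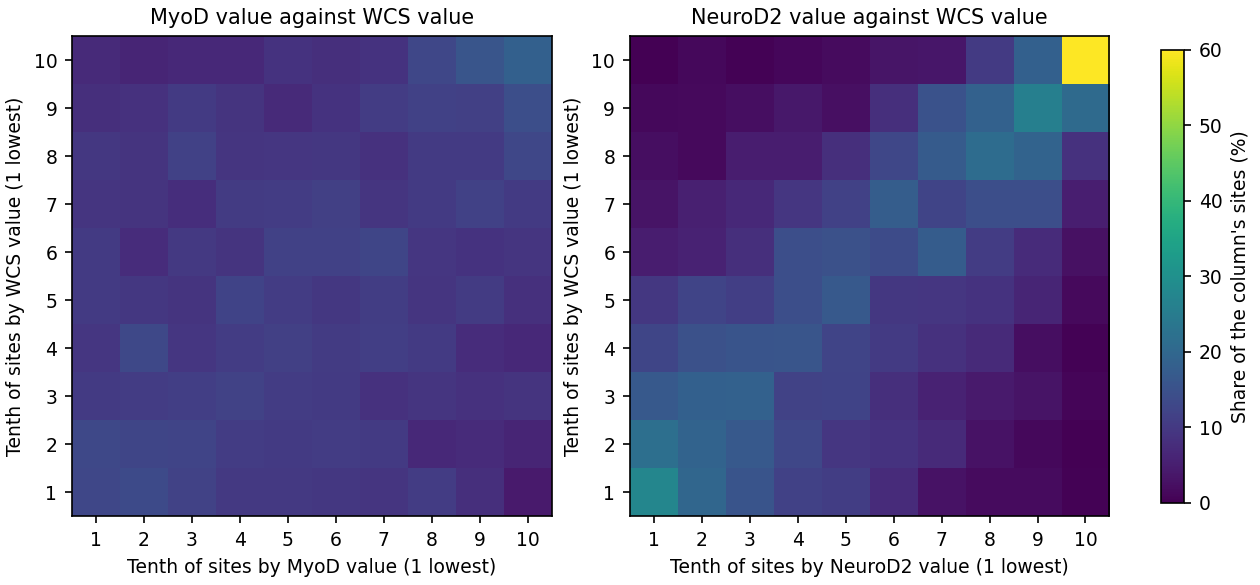
Ranks of the 4964 held MyoD sites that are in the NeuroD2 list, in 10 bins by the MyoD value (left) or the NeuroD2 value (right) along the horizontal axis and by the WCS value along the vertical axis. Colour gives the percent of each column's sites. The right panel has a diagonal that ends at 59.8% in the highest bins, and the left panel reaches 18.5% there.

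The 3530 MyoD sites found in all 5 lists allowed the proteins to be ranked on the same DNA. There rho with the WCS value was 0.79 for WC, 0.69 for NeuroD2, 0.38 for the chimera and 0.07 for MyoD. With the MyoD value, the chimera had a rho of 0.40, WC 0.11 and NeuroD2 0.06. The chimera was the list whose order was most like that of MyoD, and the lists with chromosome X and short sites were the ones most like WCS.

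Sites held without NeuroD2 had low values in the WCS list, as did the WCS sites outside NeuroD2 that lay over no MyoD site. These 1307 sites were 7.06% (6.69 to 7.44%) of the 18515 MyoD sites outside the NeuroD2 list. Of them 63.7% (61.1 to 66.3%) were in WC and 54.7% (52.0 to 57.4%) in the chimera list. Neither list had 269 of the 1307, against 13371 of the 17208 lost sites outside NeuroD2. The WCS sites over MyoD and outside NeuroD2 had a median WCS value of 7.10 (7.05 to 7.46) and none above 57.5. WCS sites over both MyoD and NeuroD2 had a median of 16.2 (15.8 to 16.6). Without MyoD the medians were 6.74 (6.74 to 6.92) outside NeuroD2 and 11.2 (11.0 to 11.5) over it. Of the 1307 held sites, 327, or 25.0% (22.7 to 27.5%), rested on a WCS value below 6, close to the lowest value in the list, against 310 of 4964, or 6.24% (5.59 to 6.95%), where NeuroD2 was present. Pooled over the 4 classes outside NeuroD2, the median MyoD value was 12.6 (11.9 to 13.4) for held and 9.63 (9.43 to 9.72) for lost sites, but only in the class of no other list was the held median the higher.

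The converse class, MyoD sites in the NeuroD2 list that WCS did not hold, counted 1456 sites. Their median MyoD value was 11.7 (11.0 to 12.3), against 16.6 (16.2 to 17.2) for the held sites in NeuroD2. WC had 39.9% (37.4 to 42.5%) and the chimera 38.9% (36.4 to 41.4%) of them. Both lists had 308 of the 1456, and neither had 617. Among the 4964 held sites in NeuroD2, both lists had 3530 and neither had 169, so the lost sites were the poorer in these lists. All coordinates below are 1-based in the mm9 build. The 3 with the highest MyoD values lay at chr17:25792759-25793594, with an infinite MyoD value and a NeuroD2 value of 6.46, at chr16:8470599-8471006, with 266 and 5.56, and at chr3:8698285-8699042, with 251 and 16.7. The NeuroD2 values at the sites on chromosomes 17 and 16 were near the bottom of that list.

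The 11 MyoD sites of infinite value, too high for the authors' scale, divided into 5 held and 6 lost. All 11 were in the chimera list and 9 in the WC list. Values from several lists are given below as deposited, and their sizes cannot be compared between lists. In the whole highest bin of 10 by MyoD value, 49.1% of sites were held, near the division of these 11. There the chimera list had 93.1% of held and 62.8% of lost sites, and WC had 94.4% and 23.1%. The site at chr15:103000056-103001018, the widest at 963 bp, had a chimera value of 208, a WC value of 13.0 and a WCS value of 5.51. At chr6:128186494-128187118 the chimera had 36.9, WC 55.6 and WCS 9.28, and at chr11:6174514-6175038 they were 143, 8.27 and 8.91. None of these 3 held sites was in the NeuroD2 list.

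The other held sites of infinite MyoD value overlapped NeuroD2. The site at chr8:125374491-125375094 had a NeuroD2 value of 16.4, a chimera value of 311, a WC value of 24.9 and a WCS value of 13.9. The site at chr9:62013887-62014381 had 22.5, 81.7, 23.6 and 11.5 in the same order. At the top of the MyoD list, the 5 held sites were thus unremarkable in the WCS list, where from 35.1% to 91.6% of all sites had a value at least as high.

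Of the 6 lost sites of infinite MyoD value, 1 overlapped NeuroD2, at chr17:25792759-25793594, and neither mutant list held it. The site at chr4:134356374-134357204 was in the chimera list alone, with a value of 81.1. At chr6:115073011-115073784 the chimera had 256 and WC 51.5, while the nearest WCS site was 64589 bp away. At chr11:77275684-77276367 the chimera had 153 and WC 5.91, and at chr3:88433901-88434455 they had 168 and 7.15. The last of the 6, at chr14:67797207-67797603, had 78.8 and 10.0. All 6 were thus in the chimera list, with a value of 40.7 at the site on chromosome 17 and 78.8 to 256 at the other 5. The 3 on chromosomes 11, 3 and 14 had WC values from 5.91 to 10.0. These values belong to separate lists, so whether binding differed in strength between the proteins was not tested.

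A small class of 269 sites was in the MyoD and WCS lists and in no other. Their median MyoD value was 9.29, and the median WCS value there, 6.07, was the lowest of the 8 classes of held sites. The 3 with the highest MyoD value lay at chr4:48428687-48429146 (MyoD 86.9, WCS 8.18), chr11:100589848-100590342 (77.1 and 6.05) and chr11:84146346-84146747 (69.3 and 5.16). All 3 had high MyoD values, while their WCS values were below the median of 12.9 for WCS sites over MyoD, and the lowest was near the minimum of the list, 5.03.

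MyoD sites with close MyoD neighbours were held somewhat more often, and this went with NeuroD2 overlap. With no other MyoD site within 10 kb, WCS held 23.1% (22.3 to 23.8%) of 13240 sites, and with 3 or more it held 31.3% (29.1 to 33.5%) of 1770. NeuroD2 overlapped 23.3% of the former and 32.7% of the latter. Outside the NeuroD2 list both shares were nearly equal, 6.81% (6.33 to 7.32%) and 6.96% (5.58 to 8.56%). Inside it they were 76.5% (75.0 to 78.0%) and 81.5% (78.1 to 84.6%).

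Windows with many MyoD sites differed in how many of them were held. Of 1319 windows of 100 kb with 5 or more MyoD sites, 239 had no held site and 6 had no lost site. Over all MyoD sites 25.1% were held, and how many such windows that share alone would give was not tested. The windows below are the extremes. The most held sites, 9, were in the windows chr10:77200001-77300000, with 11 MyoD sites, chr11:87900001-88000000, with 13, and chr8:122700001-122800000, with 14. NeuroD2 had 4, 18 and 16 sites in these windows, and WCS had 18, 17 and 13. The window on chromosome 10 was thus kept with few NeuroD2 sites but many WCS sites. The most lost sites, 12, were in chr8:13100001-13200000 and chr11:119400001-119500000, where 0 of 12 MyoD sites were held and WCS had 1 site each, and in chr11:120100001-120200000, where 3 of 15 were held. NeuroD2 had 2, 3 and 9 sites in those windows.

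The share held ranged from 20.2% to 28.7% over the autosomes. It was highest on chromosome 17, at 28.7% (26.2 to 31.3%) of 1239 sites, and on chromosome 15, at 27.3% (24.8 to 29.9%) of 1199. It was lowest on chromosome 14, at 20.2% (17.4 to 23.2%) of 762, and on chromosome 3, at 21.4% (19 to 23.9%) of 1099. The shares of MyoD sites in the NeuroD2 list on these chromosomes, in the same order, were 28.2%, 25.9%, 20.6% and 22.6%.

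**Figure D4:**
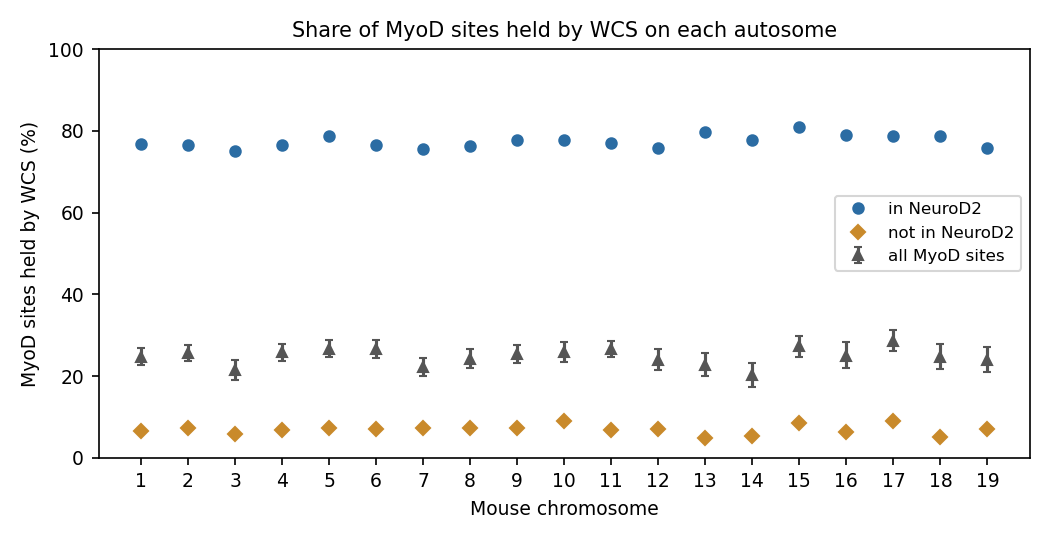
Percent of MyoD sites held by WCS (vertical axis) on each of the 19 autosomes (horizontal axis). Triangles are all MyoD sites with exact 95% binomial intervals, circles those in the NeuroD2 list and diamonds those outside it. Triangles range from 20.2% on chromosome 14 to 28.7% on chromosome 17, and circles lie far above diamonds on every autosome.

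The WCS sites outside the MyoD list, 16182 in number, were mostly NeuroD2 and WC sites. Of all WCS sites 73.9% overlapped NeuroD2, 82.2% WC and 34.0% the chimera. NeuroD2 overlapped 72.0% (71.3 to 72.7%) of the WCS sites without MyoD and 78.8% (77.8 to 79.8%) of those with MyoD. WC overlapped 80.0% (79.4 to 80.7%) and 87.8% (87.0 to 88.6%), and the chimera 20.2% (19.5 to 20.8%) and 69.7% (68.5 to 70.8%). The chimera list, the shortest of all at 14375 sites, thus differed most between the WCS sites with and without MyoD. Of all 22462 WCS sites, 1829 were in no other list, or 8.14% (7.79 to 8.51%).

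Sites that WCS shared with MyoD ranked higher in the WCS list than the rest. Their median WCS value was 12.9 (12.3 to 13.3), against 9.28 (9.16 to 9.50) without MyoD. In 10 bins of autosomal WCS sites by WCS value, the share over a MyoD site went from 19.5% (17.9 to 21.3%) to 47.1% (45.0 to 49.2%). Within WCS sites that overlap NeuroD2 it went from 20.7% (18.8 to 22.8%) to 49.6% (47.2 to 52.1%), and in those outside NeuroD2 from 17.7% (14.6 to 21.1%) to 29.5% (25.8 to 33.4%). At the top of the list, 5 WCS sites without MyoD tied at an infinite value, and all 5 were in the WC list, 3 in the NeuroD2 list and 1 in the chimera list. The 3 widest, at chr17:29816899-29817687, chr2:181747331-181748052 and chr9:3006602-3007052, were those in the NeuroD2 list. The other tied sites, at chr9:3003308-3003690 and chrX:166649918-166650296, were outside it. The unique mapping of reads there was not tested.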

How the data were processed

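ChIP-seq sites of 5 transduced groups were analysed, each deposited as 1 list for its 2 libraries. Per the submitters' processing notes, CASAVA 1.8.2, BWA 0.7.5 and mm9 were used. For the peak caller, its background and the merging of libraries, no source used here gives a statement. The authors deposited a value for each site that was treated as a −log10 p-value because of its range, no label or header naming the unit, and it served to order the sites of each list. Overlaps, exact Clopper-Pearson intervals, exact binomial intervals of medians and rank correlations were computed with Python 3.11.15, numpy 2.4.6, pandas 2.3.3 and scipy 1.17.1, and figures with matplotlib 3.10.9. A MyoD site over several sites of a list took their highest value. Simulated data with known overlaps, and bedtools, were used to test the script.

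The members, classes and alternatives were chosen with earlier results of these data known. Sites were named by a rule: the 5 held and 5 lost MyoD sites of highest value, the 3 of highest value in each special class, the 3 windows of 100 kb with the most held and the most lost sites, and the 2 chromosomes at each end. Ties were ordered by width. The last lost site of infinite value, the value bins, the rank relations and the neighbour counts were added after the lists were seen. No genome or annotation of mm9 was used here, so no gene was placed and no sequence or motif is given.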

Additional observations from a re-analysis of the deposited data

How the results depend on the processing

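Of 6 alternatives, an overlap of at least 50% of the shorter site, and a common filter to autosomes and one range of widths, left all 6 main values inside their 95% intervals. With centres at most 100 bases apart, WCS held 20.0% of MyoD sites, 22.2% of WCS sites lay over MyoD, and NeuroD2 overlapped 72.5% of held and 7.22% of lost sites. With only the upper 50% of every list by value these were 21.5%, 23.8%, 76.9% and 6.27%, and the median MyoD values were 27.1 for held and 19.1 for lost sites, since low values are removed. With lists cut to 22462 sites they were 26.3%, 26.3%, 69.4% and 4.47%, with medians of 16.9 and 10.8. With sites within 500 bases joined WCS held 25.8%. Under every one of these alternatives the NeuroD2 share and the pooled median MyoD value were higher for held than for lost sites. Of 16 other values recomputed, 13 moved beyond their interval (a rho: by over 0.05) with lists of equal length, 12 with the rule on centres, 5 with the upper 50%, and 0 under the other 3 alternatives. No paired analysis was possible because each group has 1 list for both libraries. For the same reason no library could be left out. Depth is unknown, so how many lost sites fell just short of the authors' threshold was not tested. The planned descriptions of genes and motifs were not run.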
